A study of Mus musculus with 9 samples.

Results

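The 7 transcription regulators of male germ cells followed here were Mybl1, Tcfl5, Rfx2, Sox30, Crem, Tbpl1 and Taf7l. They were taken by gene symbol and make up 7 of the 22337 genes in the table. The 9 testis libraries came from mice at 3 weeks of age, with 3 libraries each of wild-type, heterozygous Piwil4 WT/R264W and homozygous Piwil4 R264W/R264W mice. The knock-in allele changes an arginine of the PIWIL4 protein, which acts with piRNAs in fetal and neonatal germ cells, to tryptophan. The allele was made by CRISPR-Cas9 with a single-stranded donor in C57BL/6 zygotes, and no further allele or agent is named for any group. The labels do not say whether the libraries of a genotype came from separate animals or litters, so a p-value covers only the spread between these libraries.

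The 7 proteins belong to consecutive gene programs of spermatogenesis. MYBL1 and the helix-loop-helix protein TCFL5 act in pachytene spermatocytes, where MYBL1 also drives genes and precursor transcripts of the pachytene piRNA pathway. RFX2 and SOX30 are needed for genes of round spermatids, including genes of the sperm flagellum, and CREM switches on the late spermatid genes that encode chromatin and tail proteins. TBPL1 and TAF7L, relatives of the general initiation factors TBP and TAF7, act in germ cells. At 3 weeks the first wave of spermatogenesis has reached meiosis and the first round spermatids appear, so RNA of a whole testis also reflects the progress of that wave. In such whole tissue, fewer cells of a type and less RNA per cell cannot be told apart.

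Stretches just upstream of the start sites are shown for 3 of the 7 genes because they hold a short motif of the same protein families. Each is the 200 bases from 250 to 51 before the RefSeq start (GRCm38.p6), printed 5′ to 3′ on the strand of the gene, with motif matches in capitals. The letters searched, on both strands, were CAACTG (MYB), TGACGTCA (full CRE), TGACG (CRE half-site, which the full CRE contains), GTTGCC (RFX half-site), CACGTG (E-box) and ACAAT (SOX).
Tcfl5, chr2:180642742-180642941, minus strand: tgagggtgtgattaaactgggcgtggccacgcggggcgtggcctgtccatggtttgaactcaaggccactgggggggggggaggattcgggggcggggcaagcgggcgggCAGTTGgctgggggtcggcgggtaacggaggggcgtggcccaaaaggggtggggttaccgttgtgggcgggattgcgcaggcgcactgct
Rfx2, chr17:56831059-56831258, minus strand: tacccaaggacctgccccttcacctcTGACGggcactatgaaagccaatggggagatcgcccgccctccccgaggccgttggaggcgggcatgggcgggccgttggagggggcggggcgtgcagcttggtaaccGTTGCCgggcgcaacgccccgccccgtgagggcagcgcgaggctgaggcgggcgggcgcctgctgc
Taf7l, chrX:134476541-134476740, minus strand: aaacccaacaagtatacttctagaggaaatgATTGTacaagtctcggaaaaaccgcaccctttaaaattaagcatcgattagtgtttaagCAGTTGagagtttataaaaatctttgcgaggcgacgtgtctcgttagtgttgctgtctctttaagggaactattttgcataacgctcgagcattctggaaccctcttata

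The Tcfl5 and Taf7l windows each held 1 MYB match, read as CAGTTG because it lies on the other strand. The Rfx2 window held 1 CRE half-site and 1 RFX half-site, and the Taf7l window also held 1 SOX match, read as ATTGT. Among all 32851 promoter windows of the same length, 9.04% held the MYB letters, 12.7% the CRE half-site, 8.05% the RFX half-site and 23.7% the SOX letters. The full CRE (0.828% of windows) and the E-box (4.34%) were found in none of the 5 windows with an entry. Those of Sox30 and Tbpl1 held none of the 6 motifs, and Mybl1 and Crem had no entry. The Tbpl1 window lies within an annotated transcript of Tbpl1 itself, so it is not upstream of every start of that gene. The windows also differed in composition. GC content was 69.0% for Tcfl5 and 73.0% for Rfx2 but 39.0% for Taf7l, against a median of 51.5% over all windows, and the CpG count was 16, 21 and 9 in the same order, each above the median of 4 over all windows. These matches describe letters only.

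Each member was read deeply. Libraries held between 17.96 and 24.3 M estimated counts, and the smallest count of any member in any library was 1047, for Taf7l. All 7 passed the filter on low counts. No stretch of 50 bases of their longest coding transcripts occurred in transcripts of another gene in the GENCODE annotation of GRCm38. Tcfl5 overlaps Col9a3, Crem overlaps Gm6225 and Tbpl1 overlaps Slc2a12, each on the opposite strand, and Mir7663 lies within Tbpl1. Whether the counting used strand is not stated, so reads in those overlaps cannot be told apart. Crem has 39 annotated transcripts, which encode activators and repressors, and the table gives 1 value for all of them.

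Levels of different genes were compared in FPKM, which divides by transcript length. Tbpl1 was the most abundant of the 7, with a mean of 266 FPKM (range 233 to 296 over 9 testes), followed by Tcfl5 with 158 (143 to 174). The ranges of Rfx2, at 106 (83.5 to 132), and Crem, at 99.2 (72.8 to 126), overlapped, so their order was not resolved. Taf7l at 39.3 (29.1 to 53.2) and Mybl1 at 35.5 (29.5 to 40.4) also overlapped, as did Mybl1 and Sox30, the lowest of the 7 at 25.05 (19.0 to 34.8). Tbpl1, Tcfl5 and the pair of Rfx2 and Crem were separated from the next in that order in all 9 testes.

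Mybl1 (ENSMUSG00000025912, GRCm38 chromosome 1, 9667415 to 9700209, minus strand, 16 exons) differed little between testes. Levels of one gene are given here as CPM, counts scaled to library size by TMM. Wild-type testes had 158, 172 and 165 CPM, heterozygous testes 139.9, 147 and 177, and homozygous testes 176, 155 and 136. All 3 groups overlapped, and the highest testis was 1.302-fold above the lowest. Its level far exceeded that of its relatives. FPKM of Mybl1 was between 7.01 and 14.2 times that of Mybl2, a cell cycle factor, and Myb, the blood cell member of the family, stayed at or below 0.13 FPKM.

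Tcfl5 (ENSMUSG00000038932, chromosome 2, 180621956 to 180642708, minus strand, 6 exons) was equally even. Its CPM was 402, 388 and 329 in wild-type, 349, 360.5 and 312 in heterozygous and 362, 343 and 416 in homozygous testes. The lowest was heterozygous replicate 3 and the highest homozygous replicate 3, with 1.33-fold between them and all 3 groups overlapping.

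Rfx2 (ENSMUSG00000024206, chromosome 17, 56775897 to 56831013, minus strand, 18 exons) spread further, over 1.75-fold. Wild-type testes had 390.4, 383 and 292 CPM, heterozygous testes 337, 394 and 267, and homozygous testes 317, 340.1 and 466. The lowest and highest testis were again heterozygous replicate 3 and homozygous replicate 3, and the groups overlapped. Rfx2 was the leading member of its family. In FPKM it exceeded Rfx4 between 4.37 and 6.46 times and Rfx1 between 6.97 and 25.8 times. The second of these ratios was widest in the testis with the lowest Rfx2 and narrowest in wild-type replicate 1, since Rfx1 itself ran from 3.23 to 16.2 FPKM.

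Sox30 (ENSMUSG00000040489, chromosome 11, 45980310 to 46017994, plus strand, 5 exons) had the widest spread of the 7, at 2.05-fold. It reached 115, 70.4 and 61.1 CPM in wild-type, 87.3, 70.5 and 55.9 in heterozygous and 68.4, 69.3 and 101 in homozygous testes. The SD of its log2 CPM over the 9 testes was 0.34, larger than for 73.5% of 15771 genes. Wild-type replicate 1 and homozygous replicate 3 stood highest, and they were the only testes in which Sox30 exceeded Mybl1 in FPKM (ratios of 1.04 and 1.06).

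Crem (ENSMUSG00000063889, minus strand) was at 201, 131 and 125 CPM in wild-type, 153, 163 and 116 in heterozygous and 140.5, 149 and 188 in homozygous testes. The same pair of testes was highest, and the spread was 1.74-fold. Crem was between 6.97 and 16.6 times as abundant in FPKM as Creb1, the widely expressed factor that binds the same element. Atf1, the third of that group, was as abundant as Crem, with ratios from 0.874 to 1.36 that lay on both sides of 1.

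Tbpl1 (ENSMUSG00000071359, chromosome 10, 22703879 to 22731938, minus strand, 7 exons) had 414, 346 and 311 CPM in wild-type, 333, 368 and 299 in heterozygous and 369, 342 and 389 in homozygous testes. Its spread was 1.38-fold, and no group stood apart. Tbp, the general TATA-binding protein, was itself high at 118 FPKM, and the ratio of Tbpl1 to Tbp stayed between 2.09 and 2.53. Tbpl2, the oocyte form, was listed at 0 in all 9 testes.

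Taf7l (ENSMUSG00000009596, chromosome X, 134460118 to 134476490, minus strand, 13 exons) had 70.4, 64.5 and 93.1 CPM in wild-type, 83.7, 62.4 and 98.8 in heterozygous and 77.5, 72.6 and 59.6 in homozygous testes. The 2 highest values were those of heterozygous replicate 3 and wild-type replicate 3, the 2 testes lowest in Rfx2, Sox30 and Crem, and the groups overlapped. In FPKM Taf7l exceeded Taf7, the general TFIID subunit, between 1.85 and 2.70 times. A further gene of this type, Taf7l2, was higher still at 142 FPKM, between 2.49 and 4.70 times Taf7l.

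**Figure D1:**
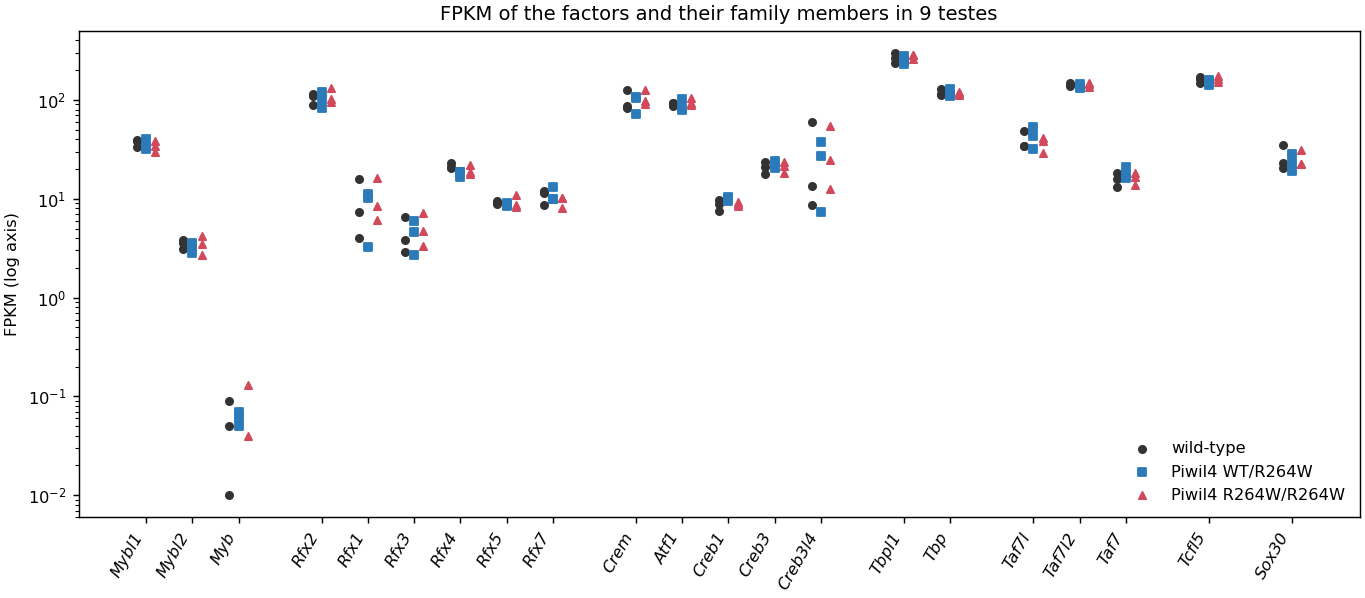
FPKM (log axis) of the 7 factors and their family members, 1 point per testis and 3 testes per genotype. Rfx1 and Creb3l4 spread over several fold between testes while most others stay within a narrow band; Tbpl2 (0 in all testes) and the 1 testis with 0 for Myb are not drawn.

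The testes differed in the RNA of round spermatid genes, used here as a measure of the first wave. All 9 carry the same age label of 3 weeks, so how far each wave had come was not itself tested. A stage score was formed by averaging log2 CPM over 16 round spermatid genes, none of them one of the 7 factors, and it ran from 2.39 to 6.12. Group means were 4.33 ± 1.62 (SD, n = 3) in wild-type, 4.22 ± 1.60 in heterozygous and 4.90 ± 1.02 in homozygous testes, with overlapping ranges. In order of rising score the testes were heterozygous 3, wild-type 3, wild-type 2, homozygous 1, homozygous 2, heterozygous 2, heterozygous 1, homozygous 3 and wild-type 1, with no break between them. The change of each gene per unit of score was then fitted in edgeR over all 9 testes with genotype in the model. The score comes from the same libraries, so a slope says which genes vary together with round spermatid RNA.

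All 7 factors had a slope past an adjusted p of 0.05, against 29.1% of the 15771 genes tested (18.6% with a positive and 10.4% with a negative slope). Of these 5 rose and 2, Mybl1 and Taf7l, fell with the score, but Mybl1 changed sign and neither of these 2 was called when libraries were scaled to Sertoli cell genes. The median slope of all genes was -0.017, and 0.098 under that scaling, so a larger slope under it is not particular to a gene. Only Sox30 and Crem were called without heterozygous replicate 3, the testis with the lowest score. Of the 7, 4 were called without wild-type replicate 1 or wild-type replicate 3, when Tcfl5, Tbpl1 and Taf7l were lost, and 4 without homozygous replicate 1 or homozygous replicate 3, when Mybl1, Tcfl5 and Taf7l were lost. The share of all genes called in these runs is not given, so a loss cannot be read as particular to the factors.

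Sox30 had the steepest slope of the 7, at 0.25 log2 per unit of score (standard error 0.032, adjusted p = 4.78e-05, Benjamini-Hochberg over the edgeR quasi-likelihood p of all genes). Crem followed with 0.20 (standard error 0.027, adjusted p = 8.72e-05 in the same edgeR fit). In that order of testes Crem went from 116 to 201 CPM and Sox30 from 55.9 to 115. The slopes of Sox30 and Crem exceeded those of 88.8% and 86.6% of all genes. They stayed between 0.22 and 0.29 for Sox30 and between 0.17 and 0.22 for Crem when each library was left out, and were 0.37 and 0.32 with Sertoli scaling. With a score of 10 pachytene genes in place of the round spermatid score, Sox30 was not called (adjusted p = 0.0692 from edgeR) and Crem was (adjusted p = 0.0155).

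Rfx2 rose by 0.16 per unit of score (standard error 0.037, adjusted p = 0.00605 from edgeR). Its adjusted p was 0.0551 without heterozygous replicate 3, at a slope of 0.15. Heterozygous replicate 1 had 337 CPM, the fourth lowest value, at the third highest score. Without that testis the slope of Rfx2 was 0.18, and with Sertoli scaling it was 0.28.

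Tbpl1 and Tcfl5 had shallower slopes, of 0.095 (standard error 0.026, adjusted p = 0.0155) and 0.080 (standard error 0.025, adjusted p = 0.0320, both from edgeR). Neither passed without wild-type replicate 1, wild-type replicate 3 or heterozygous replicate 3, and their adjusted p then lay between 0.0736 and 0.171. Tcfl5 also failed without homozygous replicate 1 (adjusted p = 0.0674) or homozygous replicate 3 (adjusted p = 0.109). With Sertoli scaling both slopes were larger, at 0.21 for Tbpl1 and 0.20 for Tcfl5, and both were called. The median of all genes also moved, from -0.017 to 0.098, so the increase is not particular to these 2 genes.

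Mybl1 fell by 0.086 per unit of score (standard error 0.027, adjusted p = 0.0280 from edgeR), and its slope was 0.030 (adjusted p = 0.768) with Sertoli scaling. It was also not called on the pachytene score (adjusted p = 0.127). Taf7l fell by 0.13 (standard error 0.044, adjusted p = 0.0458 from edgeR), and its slope was -0.014 (adjusted p = 0.893) with that scaling. Taf7l was also not called with the size factors of DESeq2 (adjusted p = 0.0570). Its slope lay below that of all but 12.3% of genes. The same testis had 83.7 CPM of Taf7l, the third highest value, and without it the slope of Taf7l was -0.17 (adjusted p = 0.00750 from edgeR).

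**Figure D2:**
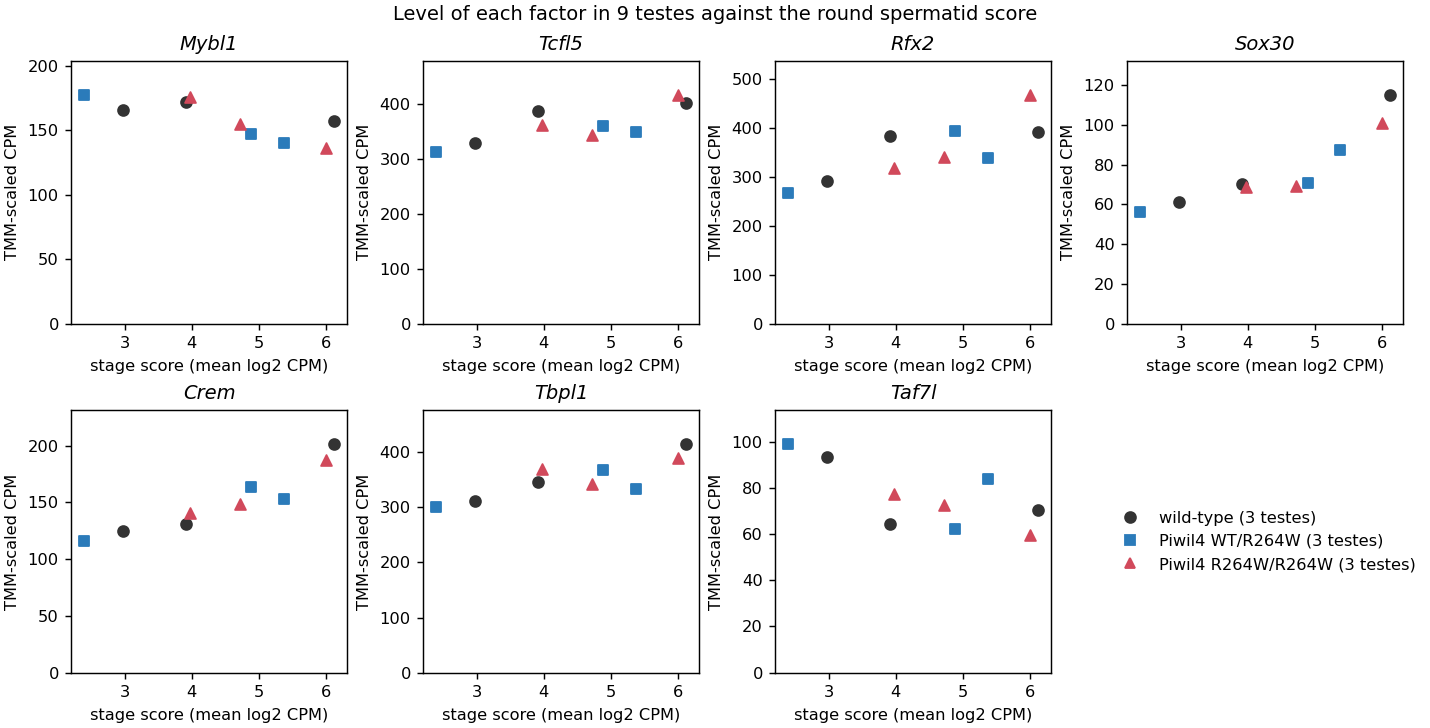
TMM-scaled CPM of each factor (vertical axis, from 0) against the stage score (log2 CPM averaged over 16 round spermatid genes), 1 point per testis, colours and shapes by genotype. Sox30 and Crem climb with the score, Tcfl5 and Tbpl1 climb less, and Mybl1 and Taf7l are lower at high scores, a slope that for Mybl1 turns to 0.030 under Sertoli scaling; the genotypes are interleaved.

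Somatic cell markers moved with the score only in part, where 29.1% of all genes were called. Of 5 endothelial genes none was called, of 5 peritubular myoid genes 1 fell and of 5 macrophage genes 1 rose. With Sertoli scaling these counts were 0, 0 and 2. The summed CPM of 7 Sertoli genes ran from 278 to 425 in wild-type, 347 to 432 in heterozygous and 334 to 378 in homozygous testes. The sum was lowest in the testis with the highest score, and 3 of the 7 genes fell with the score while none rose (1 fell with the size factors of DESeq2). Of 6 Leydig genes 2 rose, and all 6 with Sertoli scaling, and their sum ran from 158 to 359, 151 to 276 and 231 to 386 CPM in the same groups. None of these Sertoli and Leydig genes was at 0 in any testis. Their part in the slopes of the 7 factors was not tested.

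Germ cell markers gave the context of these slopes. Over all genes 18.6% rose and 10.4% fell. Among 10 pachytene genes 5 rose (3 without heterozygous replicate 3) and none fell, among 8 early meiotic genes 4 fell and none rose, and among 7 spermatogonial genes tested 3 fell and none rose. The pachytene gene Ldhc, a lactate dehydrogenase of germ cells, had a slope of 0.10 and the early meiotic gene Sycp2, part of the chromosome axis, had -0.10. With Sertoli scaling, by contrast, 7 of the pachytene genes, 1 of the spermatogonial genes and none of the early meiotic genes rose. No gene of these 3 lists then fell, where few of all genes did. The slope of Sycp2 was 0.02, not called, like that of Mybl1.

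Relatives of the 7 factors were described for 15 genes, of which 13 passed the filter. Their median slope was 0.05, with 5 called up, 3 called down and 5 not called, beside 18.6% up and 10.4% down over all genes. Creb3l4, a membrane-bound CREB family member, rose by 0.92 per unit of score and Rfx1 by 0.67, steeper than any of the 7 factors. Rfx3 rose by 0.25, Rfx4 by 0.12 and Tbp by 0.07, the last at an adjusted p of 0.0489 from edgeR. Creb1 fell by 0.13, Taf7 by 0.11 and Rfx7 by 0.09 per unit, but none of these 3 was called with Sertoli scaling, where Taf7 and Rfx7 changed sign (0.01 and 0.02) and 7 of the 13 rose. Atf1 (0.01), Taf7l2 (0.05), Creb3 (-0.03), Rfx5 (-0.03) and Mybl2 (0.09) were not called. Crem and Creb1, whose proteins bind the same DNA element, had slopes of opposite sign, and the value for Creb1 was -0.02 with Sertoli scaling. Without heterozygous replicate 3, 4 relatives were called up and 1 down.

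Proteins known to work with the 7 factors numbered 5, with a median slope of 0.22. Fhl5, the coactivator of CREM in spermatids, rose by 1.67 per unit of score, from 0.67 to 46.2 FPKM. Kif17, a motor protein that binds FHL5, rose by 0.94, from 4.42 to 41.6 FPKM. Per FPKM of Crem, Fhl5 went from 0.00920 in the testis with the lowest score to 0.366 in that with the highest. Gtf2a1l, the germ cell form of a TFIIA subunit that partners TBPL1, rose by 0.22. Brdt, a bromodomain reader of acetylated histones, had a slope of 0.04, and Btbd18, which acts with MYBL1 on pachytene piRNA loci, had -0.12. Neither was called (adjusted p = 0.198 and 0.0510 from edgeR). With Sertoli scaling, where the median of all genes was 0.098, Brdt rose by 0.16 (adjusted p = 0.0459 from edgeR), and 4 of the 5 were called up.

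Late spermatid genes that depend on CREM all rose, 8 of 8 under TMM and Sertoli scaling and without heterozygous replicate 3. Over all genes 18.6% rose under TMM. The score is itself made of round spermatid genes, so spermatid genes rise with it in any case, and the count says nothing about CREM. The median slope was 1.98, with a range from 0.60 for Ace to 3.26 for Prm1. In the order of rising score Prm1, a protamine that packs sperm DNA, had 2, 4, 6, 6, 45, 6, 344, 611 and 899 counts. Tnp2, a transition protein, had 2, 12, 24, 22, 140, 50, 1012, 1669 and 2412 counts. The RNA of both was thus concentrated in the last 3 testes. Crem did not separate these from the rest: heterozygous replicate 1, with 344 counts of Prm1 and 1012 of Tnp2, had 153 CPM of Crem, and heterozygous replicate 2, with 6 and 50 counts, had 163. The ratio of Prm1 to Crem in FPKM rose from 0.00316 to 0.642. Smcp, a capsule protein of sperm mitochondria, and Odf1, an outer dense fibre protein, were the most abundant together with Tnp2, with slopes of 1.23 and 1.09. Prm2 had no count in heterozygous replicate 3 and Tnp1 none in wild-type replicate 3, where up to 3 counts (0.165 and 0.149 CPM) remain possible.

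Genes of the kind MYBL1 and RFX2 act on had smaller slopes, and the counts below stand beside 18.6% up and 10.4% down over all genes. Of 9 genes of the pachytene piRNA pathway 2 rose, 2 fell and 5 were not called, with a median of -0.020 beside -0.017 for all genes, and with Sertoli scaling 2 rose and none fell. Mael, a piRNA factor of the nuage, rose by 0.10 and Tdrd6, a tudor protein of the chromatoid body, by 0.15. Piwil1, the PIWI protein of pachytene piRNAs, was not called (-0.01). Of 12 genes of the axoneme and ciliary transport 7 rose and none fell, with a median of 0.09 (9 rose with Sertoli scaling, and 5 without heterozygous replicate 3). Spag6l, a central pair protein, rose by 0.09. Rsph1 (0.02), a radial spoke protein at 977 FPKM, and Ift140 (0.07), a transport protein, were not called. The median of this list lay below the slope of Rfx2.

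Core promoter subunits numbered 20, and 5 rose, 3 fell and 12 were not called, where 18.6% of all genes rose and 10.4% fell. Their median was -0.01. With Sertoli scaling 9 rose and none fell. Taf9, the most abundant at 557 FPKM, rose by 0.13, and Gtf2a1l and Tbp have been described. Of the 11 factors of earlier germ cells 1 rose, 1 fell and 9 were not called. Dmrtb1, which controls the exit from mitosis into meiosis, was the one that rose, by 0.14, at a mean of 405 FPKM above each of the 7 factors. Stra8 (-0.08), the gate of meiotic entry, and Id4 (-0.04), of stem spermatogonia, were not called. With Sertoli scaling Dmrtb1 was the only one of the 11 called. Of 10 further factors of spermatocytes and spermatids 5 rose and none fell. These included Hsf5 (0.10) and Zfp541 (0.14), of pachytene cells, and Zmynd15 (0.31), a repressor of early spermatids.

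**Figure D3:**
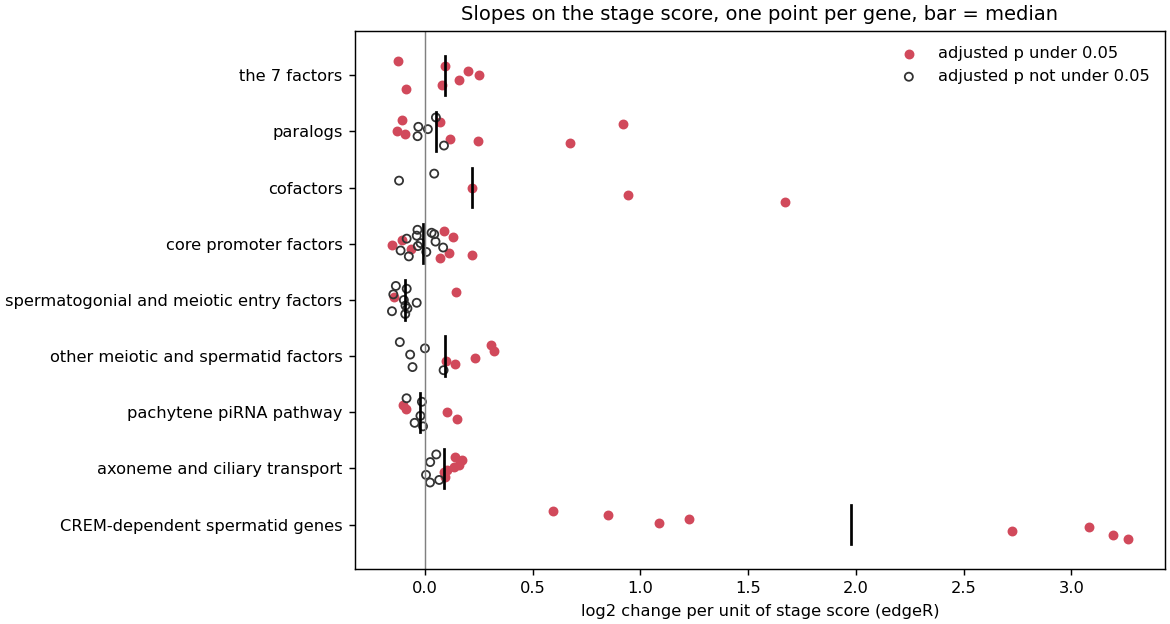
Slope of each gene on the stage score (log2 per unit, edgeR, TMM scaling), 1 point per gene in rows by gene list, filled where the adjusted p was under 0.05, with a bar at the list median. The 7 factors lie between -0.13 and 0.25, of which the -0.086 of Mybl1 turns to 0.030 under Sertoli scaling, while the CREM-dependent genes reach 3.26.

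The comparison between genotypes asked whether the factors differed in testes with mutant PIWIL4. Homozygous against wild-type testes, the log2 fold changes were -0.09 for Mybl1, 0.00 for Tcfl5, 0.07 for Rfx2, -0.05 for Sox30, 0.06 for Crem, 0.04 for Tbpl1 and -0.12 for Taf7l. None of the 7 was called, where 0% of 15543 genes were called by edgeR and 1.26% had an unadjusted p under 0.05. None of the 7 had an unadjusted p under 0.05 either, and DESeq2 called none of them and 1 of all genes. Standard errors ran from 0.10 for Mybl1 to 0.28 for Sox30 and each exceeded the fold change of its gene. Crem, for example, had 152 ± 42.3 CPM in wild-type and 159 ± 25.2 in homozygous testes (SD, n = 3).

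For every factor the 2 groups overlapped, whereas 5.58% of all genes had groups that did not. Exact two-sided permutation tests gave p between 0.6 and 1, and 0.1 is the smallest that 3 against 3 allows. The sign for Tcfl5, Rfx2, Crem and Tbpl1 turned when the stage score was added as a covariate (-0.05, -0.03, -0.05 and -0.01). With the score in the model the standard error for Crem fell from 0.21 to 0.066 and that for Sox30 from 0.28 to 0.076. Sox30 then had a log2 fold change of -0.18 at an unadjusted p of 0.0311 and an adjusted p of 0.895 from edgeR.

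Against heterozygous testes the homozygous testes had log2 fold changes of 0.01 for Mybl1, 0.14 for Tcfl5, 0.17 for Rfx2, 0.16 for Sox30, 0.14 for Crem, 0.14 for Tbpl1 and -0.22 for Taf7l. None was called, against 0% of 15463 genes by edgeR, and none had an unadjusted p under 0.05, which 2.22% of genes had. DESeq2 called none of the factors and 5 of all genes. The 5 factors that rose with the stage score had values between 0.14 and 0.17, and the mean score was higher in the homozygous testes (4.90 against 4.22). The part of the score in these values was not tested. Score and genotype cannot be told apart here, since the score comes from the same libraries and may itself differ by genotype. With the score as covariate the values for Sox30 and Crem were 0.01 and 0.03. Groups overlapped for all 7 factors (7.06% of genes had groups that did not), with exact permutation p from 0.2 to 1.

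Heterozygous against wild-type testes, the log2 fold changes were -0.10 for Mybl1, -0.14 for Tcfl5, -0.10 for Rfx2, -0.21 for Sox30, -0.09 for Crem, -0.10 for Tbpl1 and 0.10 for Taf7l. None was called, against 0% of 15413 genes, by edgeR or by DESeq2, and none had an unadjusted p under 0.05, which 1.11% of genes had. All groups overlapped, as they did for all but 5.36% of genes, and exact permutation p lay between 0.3 and 0.8. These 3 comparisons share libraries and are not independent of each other. A missed threshold does not show that the genotypes were alike, and with standard errors of up to 0.28 small differences could not be resolved.

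**Figure D4:**
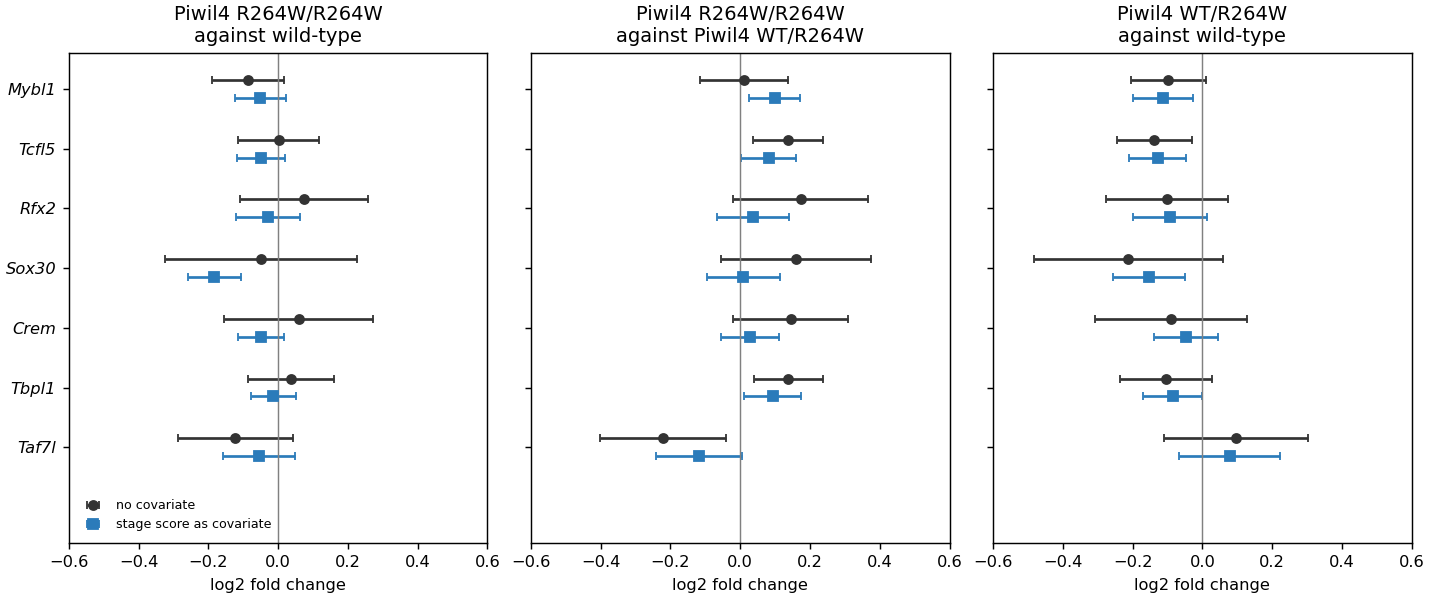
Log2 fold change of each factor in the 3 genotype comparisons (edgeR), without a covariate (circles) and with the stage score as covariate (squares), with bars of 1 standard error. All values lie between -0.22 and 0.17, and none had an adjusted p under 0.05.

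The genes most like each factor were taken as the 3 with the highest Pearson r of log2 CPM over the 9 testes among 15771 genes. These values describe libraries that share depth and stage, and no p is attached to them. For Mybl1 they were Pik3cb (r = 0.956), Klhl4 (0.953) and Lysmd3 (0.945), the lowest set of the 7. For Taf7l they were Capn7 (0.975), Actr2 (0.973) and Syncrip (0.971). Both sets had slopes on the score that were below 0 under TMM scaling, from -0.39 for Klhl4 to -0.07 for Pik3cb.

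The other 5 factors each had a gene that followed them more closely. Trappc9 (r = 0.997), Zfp574 (0.995) and Rsph6a (0.993) were most like Rfx2. Ssmem1 (0.996), 4930453N24Rik (0.996) and Armc2 (0.993) were most like Crem, and Ddhd1 (0.995), Gm884 (0.995) and Pcf11 (0.993) were most like Sox30. Tcfl5 was followed by Nsmaf (0.989), Usp42 (0.984) and Grk3 (0.980), and Tbpl1 by Akirin2 (0.987), Pdzd9 (0.985) and Zpbp2 (0.984). Zpbp2, a protein of the sperm acrosome, is itself one of the 16 genes of the stage score. None of the 21 genes was named for more than 1 factor.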

How the data were processed

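RNA of whole testes was sequenced in 9 libraries, 3 per Piwil4 genotype, assigned from the sample labels. The authors extracted total RNA with TRIzol, made mRNA libraries and filtered reads with fastp (version 0.18.0). The submitters' processing notes also name StringTie (version 1.3.1), DESeq2 and mm39, while the aligner, annotation and counting tool are not given in the sources used here. The authors deposited FPKM values and estimated counts for 22337 genes, 89.2% of the latter being whole numbers.

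Estimated counts were rounded and analysed with edgeR (version 4.0.16, R 4.3.3) using filterByExpr, TMM scaling and the two-sided quasi-likelihood test, for each pair of genotypes and for the slope on the stage score over all 9 libraries. P-values were adjusted by Benjamini-Hochberg over all genes tested, and genes were called at an adjusted p under 0.05. The stage score is the mean log2 CPM (prior count 1) of Acrv1, Spaca1, Spaca3, Spaca4, Spaca7, Izumo1, Catsper3, Catsper4, Actl7a, Actl7b, Tssk1, Tssk2, Sun5, Zpbp2, Lyzl4 and Lyzl6. It is continuous, and no groups were formed from it. Single factors were also compared by exact two-sided permutation tests. Fits were tested on simulated data. Totals of 17.96 to 24.3 M counts per library limit counting error only.

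The 7 factors and all gene lists were chosen with earlier results of these data known. Named genes are the 7 factors, all listed relatives and cofactors, the 3 of highest mean FPKM in each other list and the 3 most like each factor. Ace, Prm1, Prm2 and Tnp1 were added with their values in view. The fits were repeated with DESeq2 (version 1.42.0) or only its size factors, with scaling to 7 Sertoli genes, with 2 other count filters, with limma (version 3.58.1) at pseudocounts of 0.1 and 1 on log2 FPKM for genes of at least 0.5 FPKM, with a replicate block, with other scores and covariates, and without each library. Gene positions and transcripts are from the GENCODE annotation of GRCm38 and promoters from RefSeq (GRCm38.p6, 5 of 7 matched). This is an older build than mm39, and the table holds no coordinates.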

Additional observations from a re-analysis of the deposited data

How the results depend on the processing

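In the genotype comparisons 0 of the 7 factors were called under each alternative run. Directions changed in these. For homozygous against wild-type testes, Sertoli scaling gave -0.033 for Tcfl5, -0.015 for Crem and -0.014 for Tbpl1, and the stage covariate gave -0.050 for Tcfl5, -0.030 for Rfx2, -0.048 for Crem and -0.014 for Tbpl1. Against heterozygous testes limma gave Mybl1 -0.056 with a pseudocount of 0.1 and -0.054 with 1. For heterozygous against wild-type testes, Sertoli scaling gave Taf7l -0.074. That scaling moved the median log2 fold change of all genes to 0.15 for homozygous against heterozygous and to -0.18 for heterozygous against wild-type testes. When single libraries were left out, log2 fold changes of homozygous against wild-type testes ranged from -0.087 to 0.061 for Tcfl5, -0.12 to 0.18 for Rfx2, -0.26 to 0.27 for Sox30, -0.083 to 0.31 for Crem, -0.049 to 0.16 for Tbpl1 and -0.22 to 0.053 for Taf7l. Against heterozygous testes they ranged from -0.083 to 0.12 for Mybl1, -0.020 to 0.31 for Rfx2 and -0.052 to 0.34 for Sox30. For heterozygous against wild-type testes they ranged from -0.23 to 0.032 for Rfx2, -0.39 to 0.11 for Sox30, -0.21 to 0.17 for Crem, -0.19 to 0.022 for Tbpl1 and -0.067 to 0.27 for Taf7l.

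On the stage score the count of factors called ranged from 2 to 7 when single libraries were left out. No share of all genes stands beside these counts, so a lower count cannot be read as particular to the factors. It was 7 with DESeq2, with either other count filter, without the genotype term and with the score less its 3 most abundant genes. It was 6 with the size factors of DESeq2 (Taf7l lost) and with limma at a pseudocount of 0.1 (Tcfl5 lost), and 5 with limma at 1 (Tcfl5 and Tbpl1 lost), with the pachytene score (Mybl1 and Sox30 lost) and with Sertoli scaling (Taf7l lost, Mybl1 at 0.030). All genes called split into 2939 up and 1644 down with TMM, 4461 and 32 with Sertoli scaling, and 2213 and 2813 with limma at 0.1. The cause was not tested. Whether the replicate numbers pair the libraries was not settled. Correlations of same-numbered deviations were 0.71, -0.07 and 0.78 for heterozygous against wild-type testes. In the comparisons with homozygous testes they lay between -0.73 and 0.07. With 3 libraries per genotype that differ in stage score, these values cannot decide it. With the replicate block 0 of 7 were called in each genotype comparison and 5 on the stage score (adjusted p of 0.0752 for Tcfl5 and 0.0724 for Tbpl1). The 3 libraries of each genotype and their spread in stage score limit the genotype comparisons.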
